A study of Homo sapiens with 7 samples.

Results

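Short chromatin loops, with anchor midpoints less than 50 kb apart, were described in 7 loop lists made by HiChIP. In this assay, DNA ends near each other in fixed nuclei are ligated, an antibody against a chromatin protein pulls down the ligated fragments, and both ends are sequenced. A loop entered by its span alone, whatever its count, and every list began at a span of about 20 kb. Of 135475 loops over the lists, 20356 were short. Loops of different lists at the same place were joined, which left 12139 distinct positions.

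The cells were HEC-1-B, a human uterine adenocarcinoma line, and lines derived from it. Unmodified (wild-type) cells were mapped with antibodies against CTCF, RAD21 and ZNF143. Cells lacking ZNF143 (ZNF143KO) were mapped with the CTCF and RAD21 antibodies. CTCF-AID cells were mapped with the ZNF143 antibody at 0 h and after 24 h of auxin, which leads to the breakdown of the tagged CTCF in cells that also express TiR1. The labels give 500 uM as the auxin concentration, and do not say whether the derived lines are single clones. A ZNF143 list from ZNF143KO cells and a CTCF list from CTCF-AID cells were not analysed here, so neither the deletion nor the breakdown was checked. Each group held 1 library, so no difference below has a replicate check and no p-value is given. Intervals are 95% and cover counting error only. Short loops that meet at an anchor depend on each other, which these intervals do not include.

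CTCF is a zinc-finger protein that binds DNA and halts the cohesin complex as cohesin extrudes a loop. RAD21 is the subunit that closes the cohesin ring. ZNF143 is a zinc-finger transcription factor known mainly from promoters. Short loops often lie nested inside longer CTCF loops, where they can join promoters, enhancers and other CTCF sites. No genome or gene annotation of the build of the lists (hg19 per the submitters' processing notes) was used here, so anchors carry no gene name, motif or printed sequence.

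Short loops made up 10.3% to 22.4% of a list. In wild-type cells there were 3106 short CTCF loops (16.1% of the list), 2415 short RAD21 loops (14.4%) and 2256 short ZNF143 loops (18.8%). ZNF143KO cells had 3500 short CTCF loops (22.4%) and 1923 short RAD21 loops (17.8%). The CTCF-AID lists held 5041 short ZNF143 loops at 0 h (12.5%) and 2115 at 24 h (10.3%). Summed over all loops, the lists held between 33460 and 143119 counts. This covers listed loops only, and the sequencing depth behind them is unknown.

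**Figure D1:**
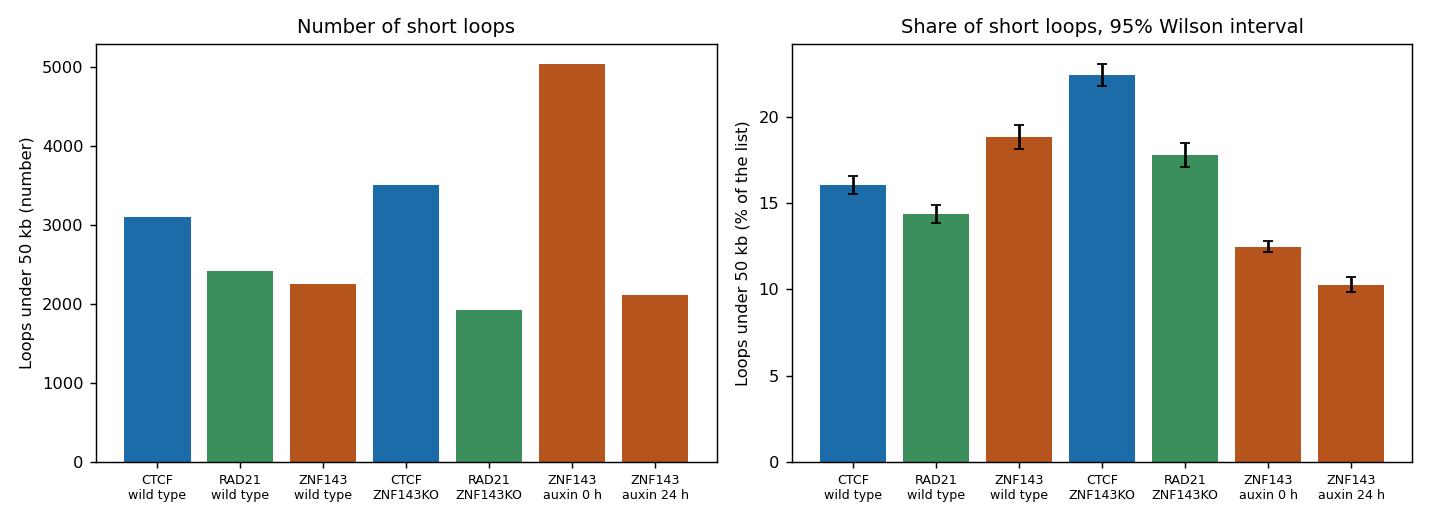
Number of loops under 50 kb (left) and their share of all loops of the list in percent (right), for the 7 lists. Bars start at 0 and are coloured by antibody, and error bars are 95% Wilson intervals. The highest number is the 5041 loops of the 0 h CTCF-AID list, and the highest share is the 22.4% of the CTCF list of ZNF143KO cells.

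The ZNF143 lists differed from the CTCF and RAD21 lists in how their counts were spread over span. The count of a loop is the deposited whole number, 2 or higher, and was taken as the number of read pairs that support it. In the wild-type ZNF143 list the mean count was 5.80 for short and 3.73 for longer loops. At 0 h in CTCF-AID cells it was 5.86 against 3.21, and at 24 h 10.7 against 4.35. In the wild-type CTCF list the means were closer, 4.50 against 4.12, and in the wild-type RAD21 list 4.52 against 4.42. Short loops thus held 26.5% of the total ZNF143 count of wild-type cells, but 17.3% of the CTCF and 14.7% of the RAD21 count. Short loops with a count of 10 or more were 14.0% (12.6 to 15.5) of short wild-type ZNF143 loops, 8.21% (7.30 to 9.23) of CTCF loops and 7.45% (6.47 to 8.57) of RAD21 loops.

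The 50 kb limit falls on no break in the data. The wild-type CTCF list held 874 loops of 40 to 50 kb and 845 of 50 to 60 kb. The wild-type RAD21 list held 704 and 708, and the wild-type ZNF143 list 606 and 546. The mean counts on the 2 sides of the limit were 4.80 and 4.50 for CTCF, 5.04 and 4.73 for RAD21, and 5.17 and 4.55 for ZNF143.

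Among short loops of the CTCF-AID lists, a count of 3 was rare beside counts of 2 and 4. At 0 h there were 2528 with 2 counts, 380 with 3 and 724 with 4. Dividing the middle number by the geometric mean of its neighbours gave 0.281 at 0 h, 0.246 at 24 h and 0.839 to 0.958 for the remaining 5 lists. Whether the CTCF-AID counts have the same scale as the others is thus unknown. Counts and count minimums set side by side between these lists and the rest are given as deposited, under that limit.

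Most short-loop positions were seen in a single list. A position was in 1 list for 7500 of the 12139 (61.8%), and 36 were in all 7 lists. Of the 78731 positions of loops of 50 kb or more, 71.9% were in 1 list, and 67 (0.0851%) were in all 7 lists, against 0.297% of the short ones. The 0 h CTCF-AID list alone held 2483 positions, and the CTCF list of ZNF143KO cells alone held 1553. These lists also had the most short loops, 5041 and 3500. Shared positions followed the antibody in part: 574 positions were in all 3 ZNF143 lists and in no other, and 200 were in all 4 CTCF and RAD21 lists and in no ZNF143 list. Such sets of lists were not counted for longer loops, so whether they are particular to short loops is unknown.

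In wild-type cells, short CTCF and RAD21 loops coincided with each other more often than with ZNF143 loops. A loop counted as found in another list when both of its anchors overlapped, by at least 1 bp, the anchors of a loop there extended by 5 kb on each side. Of the short RAD21 loops, 54.0% (52.0 to 56.0) had a CTCF counterpart, and 44.9% (43.1 to 46.6) of the short CTCF loops had a RAD21 counterpart. These shares were near those of longer loops, 51.9% and 46.7%, with differences of 2.15 points (-0.00462 to 4.29) and -1.89 points (-3.79 to 0.0244). Of the short ZNF143 loops, 25.8% (24.0 to 27.6) had a CTCF counterpart, 21.8% (20.1 to 23.5) a RAD21 counterpart, and 68.9% neither. Of the longer ZNF143 loops, 15.0% had a RAD21 counterpart, and the share with neither was not computed. The share found in the CTCF list was 8.36 points (6.43 to 10.3) higher for short than for longer ZNF143 loops, of which 17.4% were found. Short CTCF loops were likewise found in the ZNF143 list more often than longer ones, 19.6% against 11.5%.

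Anchors met more often than whole loops. Both anchors lay at wild-type CTCF loop anchors for 27.2% of the short wild-type ZNF143 loops, 1 anchor did for 42.4% and neither did for 30.5%. Longer ZNF143 loops had nearly the same shares, 25.6%, 44.4% and 30.0%. Among short loops the mean ZNF143 count was 4.78, 6.30 and 5.99 in these classes. For short CTCF loops the order of the counts was different: those with both anchors at wild-type ZNF143 loop anchors had a mean CTCF count of 6.71, those with 1 had 3.93 and those with neither 3.16.

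Most short loops shared an anchor with a longer loop of the same list. The share with at least 1 such anchor was 92.7% (91.7 to 93.6) for wild-type CTCF, 90.8% for wild-type RAD21 and 85.5% for wild-type ZNF143. In ZNF143KO cells it was 84.0% for CTCF and 77.1% for RAD21. CTCF-AID cells had the highest shares, 97.6% at 0 h and 96.9% at 24 h. Both anchors were shared for 49.4% of wild-type CTCF loops and 35.7% of those of ZNF143KO cells, against 82.9% at 0 h in CTCF-AID cells. These shares also move with the number of longer loops in a list, which was 35364 at 0 h in CTCF-AID cells and 8881 for RAD21 in ZNF143KO cells.

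Short loops also shared anchors with each other. In the wild-type lists, 56.4% of short CTCF loops, 48.8% of short RAD21 loops and 61.5% of short ZNF143 loops shared an anchor with another short loop. Loops linked through shared anchors are called a chain here, whether they lie side by side, nested or fanned out from 1 anchor. The chain with the most loops in the wild-type ZNF143 list had 42 short loops on 34 anchors, at chr19:49074692-49649962. In the CTCF list it had 24 short loops on 18 anchors, at chr12:56319981-56697209. A chain overlapping that place had the most loops in the wild-type RAD21 list too, with 19. In the CTCF list of ZNF143KO cells it had 23, as many as a chain at chr3:50191891-50417682.

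The 2 anchors with the most short loops were taken in each wild-type list, with ties going to the higher summed count. In the RAD21 list 3 anchors tied at 5 short loops. The anchor chr17:43274551-43276348 was among them for both CTCF and RAD21. It had 6 short CTCF loops with a summed count of 128 in wild-type and 6 with 75 in ZNF143KO cells, and 5 short RAD21 loops with 101 and 68. The anchor chr3:50309918-50312663 had 7 short CTCF loops in wild-type cells (summed count 92) and 5 in ZNF143KO cells (51). For ZNF143, the anchor chr19:46026524-46027955 had 6 short loops in wild-type cells (153), 7 at 0 h (145) and 4 at 24 h (100) in CTCF-AID cells. It had only 2 short CTCF loops in wild-type cells, with a summed count of 7. The anchor chr19:14191483-14192971 had 7 short ZNF143 loops in wild-type cells, 3 at 0 h and 1 at 24 h in CTCF-AID cells, and none in the 4 CTCF and RAD21 lists. The remaining anchor, chosen for RAD21 at chr19:45980865-45983019, had short loops of all 3 proteins in wild-type cells: 5 of RAD21 (73), 3 of CTCF (50) and 5 of ZNF143 (54).

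Short loops lay mostly inside larger CTCF loops, but those of ZNF143 sat away from the ends more often. Position was read against the 16207 wild-type CTCF loops of 50 kb or more, which covered 49.2% of the length between the first and last anchors of the chromosomes. Of the short wild-type CTCF loops, 87.2% (86.0 to 88.3) lay wholly inside such a loop, as did 86.9% (85.5 to 88.2) of the RAD21 loops and 79.5% (77.8 to 81.1) of the ZNF143 loops. Inside loops were split into those sharing an anchor with a larger loop that held them (edge) and those clear of its anchors (interior). Edge loops were 79.8% of short CTCF, 75.9% of RAD21 and 46.0% of ZNF143 loops. Interior loops were 7.37% (6.51 to 8.35), 10.97% (9.79 to 12.3) and 33.5% (31.6 to 35.5). The CTCF value is read against loops of its own list, so its edge share also counts the sharing of anchors given above. Being inside was not particular to short loops. Inside wild-type CTCF loops of 100 kb or more were 84.4% (83.2 to 85.5) of CTCF loops of 50 to 100 kb and 82.7% (81.3 to 84.0) of short ones, 84.8% and 83.4% for RAD21, and 75.4% and 76.6% for ZNF143. By that measure short loops were interior more often than those of 50 to 100 kb in all 3 wild-type lists. The interior shares were 13.3% (12.2 to 14.5) against 8.86% (7.98 to 9.82) for CTCF, 16.6% (15.1 to 18.1) against 11.3% (10.2 to 12.4) for RAD21 and 38.9% (36.9 to 41.0) against 33.6% (31.7 to 35.6) for ZNF143. In the CTCF-AID lists, against larger loops of 50 kb or more, interior short loops were 36.7% (35.4 to 38.1) at 0 h and 42.7% (40.7 to 44.9) at 24 h.

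**Figure D2:**
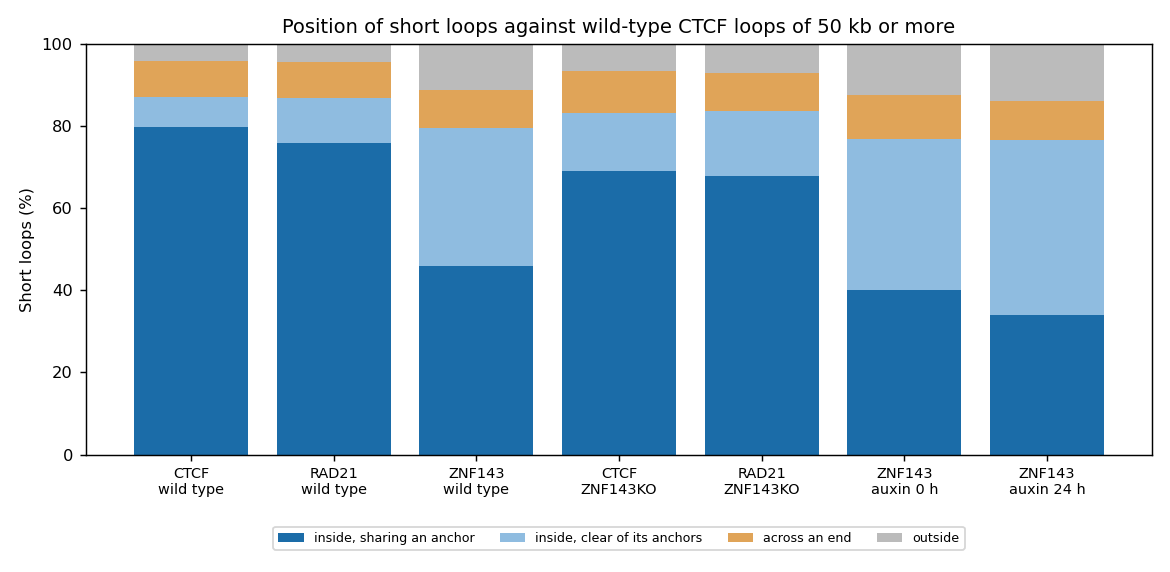
Share of short loops in percent (vertical axis, from 0 to 100) by position against wild-type CTCF loops of 50 kb or more, for each of the 7 lists. Dark blue is inside and sharing an anchor, light blue inside and clear of the anchors, orange across an end and grey outside. The light blue part is 7.37% for wild-type CTCF, 33.5% for wild-type ZNF143 and 42.7% at 24 h of auxin.

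The first comparison asked how short CTCF loops fared without ZNF143. ZNF143KO cells had 1.13 times as many short CTCF loops as wild-type cells (1.07 to 1.18), whereas loops of 50 kb or more were 0.746 times as many (0.729 to 0.764). The ratio was 1.28 (1.18 to 1.38) at 20 to 30 kb, 1.06 (0.971 to 1.15) at 30 to 40 kb and 1.01 (0.914 to 1.10) at 40 to 50 kb. The summed count of short CTCF loops moved the other way, from 13971 to 11179. The higher number lay in loops of low count: those with a count of 2 went from 1398 to 1978 (ratio 1.42, 1.32 to 1.52). Loops with a count of 5 or more went from 745 to 496 (0.666, 0.593 to 0.747), and those with 10 or more from 255 to 83 (0.326, 0.251 to 0.419). With a minimum count of 3 the ratio was 0.891, so its direction turned, and with the wild-type list thinned in expectation to an equal listed total it was 1.71.

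For RAD21, short loops were 0.796 times as many in ZNF143KO as in wild-type cells (0.750 to 0.846), against 0.618 (0.602 to 0.635) for longer loops. Their number with a count of 2 was 1099 in wild-type and 1136 in ZNF143KO cells, and with a count of 10 or more 180 and 42. At equal listed totals the ratio of short RAD21 loops was 1.49, so its direction turned too. In both proteins the ratio was higher for short than for longer loops in each count class compared. At counts of 5 or more the RAD21 intervals overlapped (0.368, 0.313 to 0.432, for short and 0.331, 0.309 to 0.354, for longer loops), while those of CTCF did not (0.666 against 0.360, 0.337 to 0.384). The lists of ZNF143KO cells had another file layout than the wild-type CTCF and RAD21 lists, so a difference in how the lists were made and the deletion cannot be told apart.

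**Figure D3:**
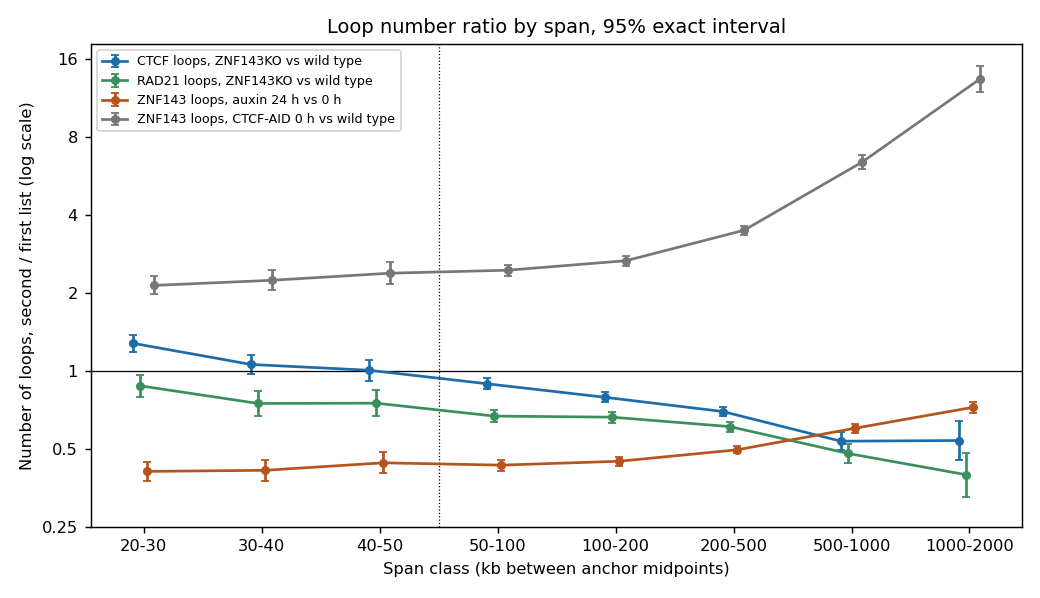
Number of loops in the second list over the first (vertical axis, log scale) by span class in kb between anchor midpoints, for 4 pairs of lists. Points are ratios, bars 95% exact intervals, the solid line marks a ratio of 1 and the dotted line the 50 kb limit. The CTCF pair falls from 1.28 at 20 to 30 kb to 0.891 at 50 to 100 kb, and the auxin pair stays between 0.409 and 0.441 in the 3 short classes.

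Single short loops turned over more than these ratios show. In ZNF143KO cells, 1630 of the 3106 short CTCF loops of wild-type cells (52.5%, 50.7 to 54.2) were present and are called kept, against 39.1% of CTCF loops of any span. The other 1476 (47.5%) are called lost, against 60.9% of all. In ZNF143KO cells, 1878 of 3500 short loops (53.7%) had no wild-type counterpart and are called gained, against 52.9% of all. The kept share was 15.97 points (14.1 to 17.9) higher for short than for longer CTCF loops, whereas the gained share differed by 1.02 points, with an interval from -0.854 to 2.90. For RAD21, 925 of 2415 short loops (38.3%, 36.4 to 40.3) were kept, against 34.1% of all, 61.7% were lost, against 65.9%, and 52.7% were gained, against 49.1%. The kept share of short RAD21 loops was 4.87 points (2.80 to 6.97) above that of all loops of 50 kb or more. Its interval overlapped those of the next span classes, 38.0% (36.3 to 39.8) at 50 to 100 kb and 38.1% (36.6 to 39.5) at 100 to 200 kb, and the share was lower from 200 to 500 kb (31.8%) upwards. For CTCF the kept share was 46.6% (45.0 to 48.2) at 50 to 100 kb and 41.8% (40.4 to 43.2) at 100 to 200 kb. A loop missing from a list was not shown to be absent, since loops with a count below 2 are not listed and the other filters are not given.

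The kept share rose with the count, and for CTCF the gap between short and longer loops was narrower at high counts. Among CTCF loops with a count of 2, 37.3% (34.8 to 39.9) of short and 22.01% (21.1 to 22.9) of longer loops were kept. The difference was 15.3 points at a count of 2, 15.8 at 3 to 4 and 11.2 at 5 to 9. At 10 or more the shares were 91.4% (87.3 to 94.2) and 89.5% (87.5 to 91.2), with a difference of 1.85 points (-2.58 to 5.35). For RAD21 the shares at a count of 2 were 23.8% and 17.9%, and at 10 or more 88.3% and 86.0%. Kept short loops with high counts in wild-type cells mostly had lower counts in ZNF143KO cells. Of 233 kept short CTCF loops with 10 or more counts, 214 had a lower count, and the median ratio was 0.417. Of 159 such RAD21 loops, 154 had a lower count, with a median ratio of 0.313. These loops were chosen by their count in the first list, and the listed totals of all loops had ratios of 0.573 for CTCF and 0.450 for RAD21.

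**Figure D4:**
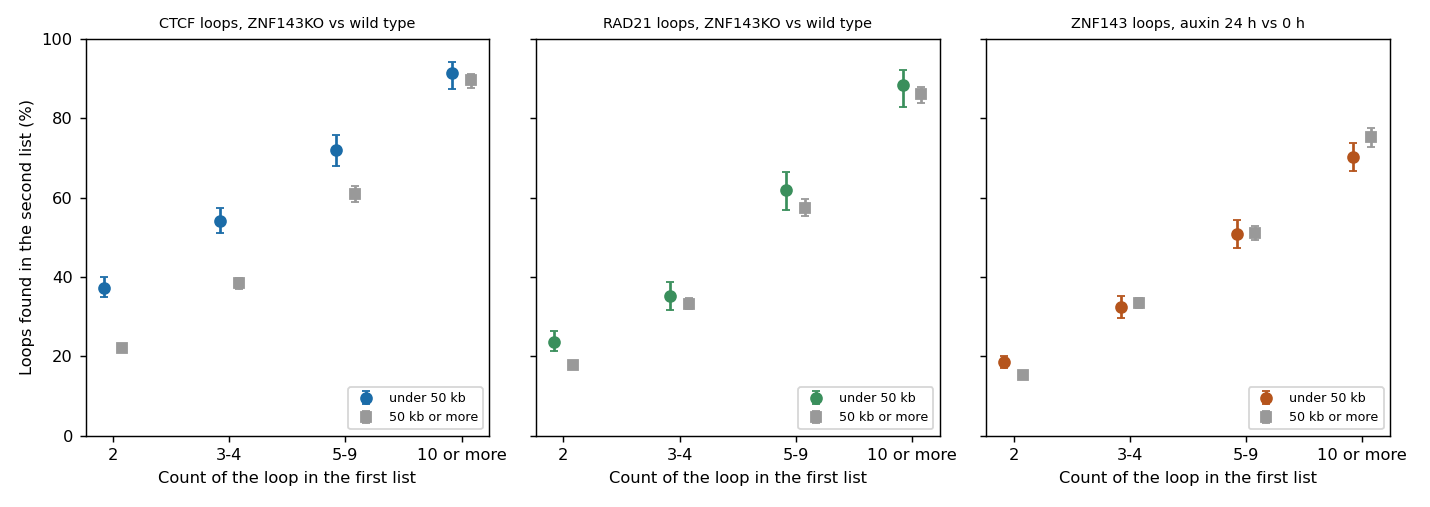
Share of loops of the first list found in the second, in percent (vertical axis), by the count of the loop in the first list (horizontal axis), for the 3 pairs with a protein removed. Coloured circles are loops under 50 kb, grey squares loops of 50 kb or more, and bars 95% Wilson intervals. Short CTCF loops run from 37.3% at a count of 2 to 91.4% at 10 or more.

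Single loops show the range. The strongest kept short CTCF loop joined chr3:137786744-137790299 to chr3:137836901-137838610. Its CTCF count was 149 in wild-type and 43 in ZNF143KO cells, and its RAD21 count 182 and 43. With the ZNF143 antibody its count was 8 in wild-type cells and 10 at 0 h, and it was not listed at 24 h. The loop from chr12:54095022-54096977 to chr12:54139778-54141919 was second, with 91 and 41 for CTCF and 71 and 40 for RAD21. Both loops lay at an edge of a larger wild-type CTCF loop.

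The lost short CTCF loop with the highest count joined chr19:48769718-48771024 to chr19:48793317-48795313. It had a CTCF count of 25 in wild-type cells, and RAD21 counts of 25 in wild-type and 9 in ZNF143KO cells, so it was kept among RAD21 loops. The next, from chr7:99727922-99731383 to chr7:99756047-99757747, had a CTCF count of 21 in wild-type cells, none in the wild-type RAD21 list and 2 at 0 h in CTCF-AID cells. The third joined chr16:46406590-46408416 to an anchor of 12551 bp at chr16:46424606-46437156, with a CTCF count of 18. Its ZNF143 count was 2 in wild-type cells, 10 at 0 h and 7 at 24 h in CTCF-AID cells. Neither of its anchors lay at an anchor of the ZNF143KO CTCF list. Gained short CTCF loops were weaker. The highest count was 8, shared by 2 loops. One of them, on chromosome 8, was also a wild-type RAD21 loop, with a count of 2. The other, from chr12:52416866-52420199 to chr12:52444970-52446146, was in no other list, and its first anchor also held a kept short loop to chr12:52462242-52464494, with CTCF counts of 84 and 27.

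For RAD21, the strongest lost short loop joined chr9:35881368-35884478 to chr9:35910391-35912103. Its RAD21 count was 27 in wild-type cells, and its CTCF count was 28 in wild-type and 2 in ZNF143KO cells. All 3 named lost RAD21 loops were still in the CTCF list of ZNF143KO cells, with counts of 2 to 5. The strongest gained RAD21 loop, from chr16:69429418-69433038 to chr16:69457921-69459734, had a count of 12 in ZNF143KO cells, and in wild-type cells a CTCF count of 5 and a ZNF143 count of 3. The next, from chr5:140233897-140236230 to chr5:140254134-140256182, had a count of 10 and was in no other list.

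Lost and gained short CTCF loops mostly had at least 1 anchor that was also in the other list, but less often both anchors than longer loops. Of the 1476 lost short CTCF loops, both anchors lay at CTCF loop anchors of ZNF143KO cells for 32.1%, 1 anchor did for 49.8% and neither did for 18.1%. Of the 1878 gained ones, both anchors lay at wild-type CTCF loop anchors for 24.9%, 1 did for 58.8% and neither for 16.3%. For longer CTCF loops, both anchors did so for 40.5% (39.5 to 41.4) of the lost and 37.9% (36.7 to 39.1) of the gained. Of the gained short CTCF loops, 70.6% (68.5 to 72.6) shared an anchor with a lost longer CTCF loop, and 53.8% (51.5 to 56.0) with a kept longer one. The short loops of ZNF143KO cells that were found in wild-type cells did so at 89.1% and 81.3%, higher than the gained ones for both.

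Gained short CTCF loops lay inside a larger loop, clear of its anchors, more often than kept ones. Edge loops were 87.1% of the kept, 71.8% of the lost and 56.8% of the gained short CTCF loops. Interior loops were 4.97% (4.02 to 6.13), 10.0% (8.60 to 11.7) and 20.0% (18.2 to 21.8). The number of interior short CTCF loops went from 229 to 498 (ratio 2.18, 1.86 to 2.55), and that of edge loops from 2479 to 2417 (0.975, 0.922 to 1.03). At counts of 5 or more, interior loops numbered 19 and 35 (1.84, 1.03 to 3.41) and edge loops 692 and 430 (0.621, 0.550 to 0.702). These classes rest on the wild-type list, from which the larger loops came. Against the 12097 larger CTCF loops of ZNF143KO cells, edge loops were 67.8% of the short wild-type and 66.5% of the short ZNF143KO CTCF loops, and interior loops 12.3% and 12.2%. The difference between the genotypes in position thus depended on which list gave the larger loops.

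Short loops were kept more often when the loop around them was. Where the shortest larger wild-type CTCF loop holding a short one was itself kept in ZNF143KO cells, 63.6% (60.8 to 66.3) of 1184 short CTCF loops were kept. Where it was lost, 49.1% (46.6 to 51.6) of 1524 were. Short loops held by a kept loop had a higher mean count, 5.58 against 4.10. Among those with a count of 2 the shares were 47.4% (42.9 to 52.0) and 35.5% (32.0 to 39.1). Of the short loops, 1062 of the 1184 and 1254 of the 1524 shared an anchor with the holding loop. Where that loop was kept, an anchor at or near the shared one was thus already in the ZNF143KO list. Among those sharing no anchor, 57.4% (48.5 to 65.8) of 122 and 44.1% (38.3 to 50.0) of 270 were kept, with overlapping intervals.

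CTCF loops at ZNF143 loop anchors, short and longer alike, were kept more often than those elsewhere. Where both anchors lay at wild-type ZNF143 loop anchors, 71.3% (68.3 to 74.1) of 930 were kept. With 1 anchor it was 50.2% (47.3 to 53.2) of 1103, and with neither 38.5% (35.6 to 41.4) of 1073. For longer CTCF loops the shares were 49.6%, 35.4% and 28.5%. The mean wild-type counts of short loops fell in the same order, as given above. Among loops with a count of 2 the order was the same, at 55.4% (49.6 to 61.1), 36.9% (32.9 to 41.2) and 29.0% (25.5 to 32.8). The ratio of loop numbers ran the other way, from 0.931 (0.848 to 1.02) with both anchors to 1.14 and 1.28 (1.18 to 1.39) with neither. At counts of 5 or more it ran from 0.722 (0.613 to 0.851) to 0.543 (0.410 to 0.713) with neither. For short RAD21 loops, the kept shares were 55.0%, 38.0% and 24.3% (longer loops 45.3%, 33.6% and 26.6%), and the ratios 0.796, 0.775 and 0.817, with overlapping intervals.

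The second comparison asked what became of short ZNF143 loops after 24 h of auxin in CTCF-AID cells. Short loops were 0.420 times as many at 24 h as at 0 h (0.399 to 0.442), against 0.522 (0.513 to 0.532) for all loops of 50 kb or more. The interval overlapped those at 50 to 100 kb (0.432, 0.412 to 0.454) and 100 to 200 kb (0.448, 0.430 to 0.466), and the ratio was higher from 200 to 500 kb (0.496, 0.480 to 0.512) upwards. The lower number lay mostly in loops of low count. The ratio was 0.298 (0.274 to 0.323) at a count of 2, 0.674 (0.620 to 0.733) at 5 or more, 0.835 (0.742 to 0.939) at 10 or more and 1.05 (0.877 to 1.26) at 20 or more. The summed count of short loops went from 29513 to 22642, a ratio of 0.767, against 0.707 for longer loops. The share of short loops kept was 33.1% (31.8 to 34.4), against 24.7% of all ZNF143 loops, and 66.9% were lost, against 75.3%. Of the 1667 kept short loops, 958 had a higher count at 24 h and 427 a lower one, with a median ratio of 1.33. Of 443 kept ones with 10 or more counts at 0 h, 282 were higher and 147 lower. Gained loops were 29.4% (27.5 to 31.4) of the short loops at 24 h, against 54.6% of all, which is 28.1 points below the share in longer loops (interval of short minus longer -30.2 to -26.0). Of the gained short loops, 69.5% (65.7 to 72.9) had both anchors at 0 h loop anchors, against 82.7% (81.9 to 83.4) of the gained longer loops. At a count of 2, short loops were kept more often than longer ones, 18.6% (17.2 to 20.2) against 15.3% (14.9 to 15.8). At counts of 3 to 9, short and longer loops were kept at shares with overlapping intervals, and at 10 or more short loops were kept less often, 70.3% (66.6 to 73.8) against 75.2% (72.8 to 77.5).

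The losses differed with the number of CTCF anchors. Where both anchors of a short ZNF143 loop lay at wild-type CTCF loop anchors, 1044 loops at 0 h stood against 280 at 24 h (ratio 0.268, 0.234 to 0.306). With 1 such anchor the ratio was 0.396 (0.365 to 0.429), and with neither 0.533 (0.493 to 0.577). The kept shares were 28.0%, 32.9% and 36.2%. The mean counts at 0 h were 5.36, 6.00 and 5.97. At counts of 5 or more the ratios were 0.403 (0.323 to 0.501), 0.611 (0.536 to 0.697) and 0.904 (0.796 to 1.03). Longer loops had the same order, with 0.283, 0.490 and 0.714. The same classes were also ordered between 2 lists in which no protein was removed: CTCF-AID 0 h over wild-type ZNF143 loops gave 1.70 (1.54 to 1.89) with both anchors, 2.26 with 1 and 2.68 (2.45 to 2.93) with neither. In that pair at 5 or more counts the ratios were 2.27, 1.85 and 2.34, which is not the same order.

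**Figure D5:**
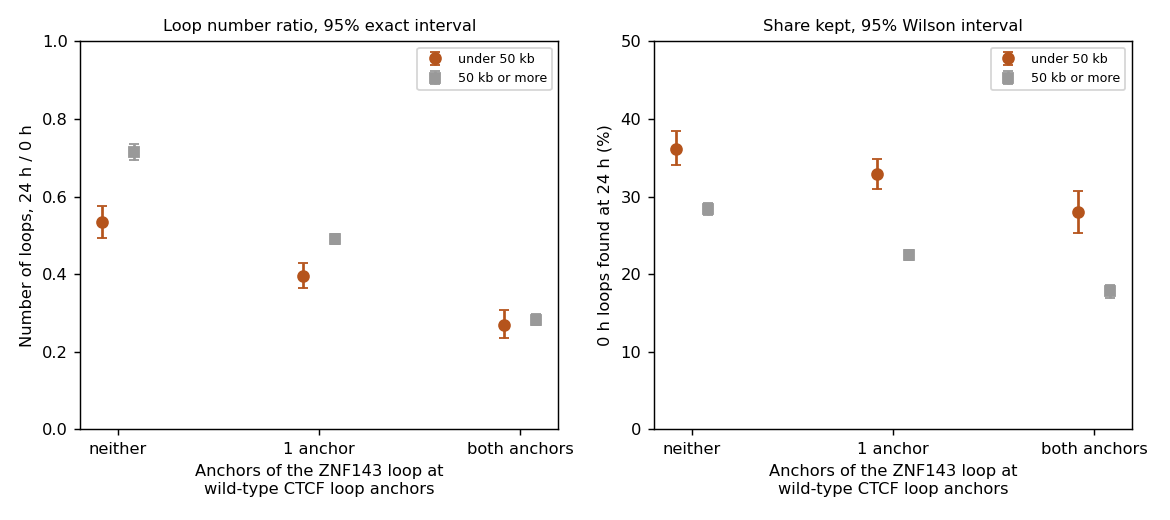
Ratio of the number of ZNF143 loops at 24 h of auxin to that at 0 h (left) and share of 0 h loops kept in percent (right, axis from 0 to 50), by how many anchors lay at wild-type CTCF loop anchors. Orange circles are loops under 50 kb, grey squares loops of 50 kb or more, and bars 95% intervals. The ratio of short loops falls from 0.533 with neither anchor to 0.268 with both.

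By position, short ZNF143 loops at an edge of a larger wild-type CTCF loop had a ratio of 0.355 (0.326 to 0.387), and interior ones 0.488 (0.450 to 0.529). Interior loops were kept at 38.2% (36.0 to 40.4) and edge loops at 31.7% (29.7 to 33.8). At counts of 5 or more the ratios were 0.548 (0.475 to 0.632) and 0.754 (0.666 to 0.854), and the kept shares 59.9% and 62.5%, with overlapping intervals. CTCF-AID 0 h over wild-type ZNF143 loops, with no protein removed, gave the same order. The ratio was 1.95 (1.805 to 2.10) for edge and 2.45 (2.25 to 2.67) for interior loops. At 5 or more counts it was 1.90 and 2.24, with overlapping intervals.

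The strongest kept short ZNF143 loop joined chr1:156715607-156717348 to chr1:156735780-156738299. Its count was 100 in wild-type cells, 321 at 0 h and 400 at 24 h, and it was in none of the CTCF and RAD21 lists. The loop from chr19:42746154-42749865 to chr19:42771393-42774087 had counts of 85, 283 and 398 and was likewise in no CTCF or RAD21 list. Both lay in the interior of a larger CTCF loop, and each had 1 anchor at an anchor of some wild-type CTCF loop. The loop on chromosome 19 also had 1 anchor at a wild-type RAD21 loop anchor. Among lost loops, the one from chr16:2204742-2206799 to chr16:2254283-2256418 had counts of 33 in wild-type cells and 64 at 0 h. Another, from chr12:54095022-54096321 to chr12:54120217-54122490, had 49 and 61, and its first anchor overlapped that of the second kept CTCF loop described above. The highest count among lost short loops, 68, was that of a loop on chromosome 8. Among gained loops, the one from chr1:149869629-149872048 to chr1:149898755-149900292 had a count of 71 at 24 h and was in no other list, as was the one from chr7:150923123-150925665 to chr7:150948211-150950686, with a count of 59. For both, 1 of the 2 anchors lay at a loop anchor of the 0 h list.

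The 0 h CTCF-AID list was also set against the wild-type ZNF143 list, a pair without auxin in which the file layout changed with the cell line, so the 2 cannot be told apart. Short loops were 2.23 times as many at 0 h (2.13 to 2.35), longer loops 3.64 times as many. Among short wild-type ZNF143 loops, 65.5% (63.5 to 67.4) were present at 0 h, against 59.6% of all, 34.5% were lost, against 40.4%, and 67.7% of short loops at 0 h were gained, against 80.6%. With the CTCF-AID counts divided by 2 and the minimum of 2 applied again, the ratio was 0.946, and at equal listed totals it was 1.09. The number of short ZNF143 loops in the untreated CTCF-AID line relative to wild type thus depended on the scale of the counts and on the listed totals.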

How the data were processed

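Formaldehyde-fixed chromatin was digested with MboI, end-marked with biotin, ligated, sonicated and precipitated with 1 of 3 antibodies, per the labels' protocols. The authors deposited 1 loop list per library, with pairs of anchors and a whole-number count per loop, not normalised. The submitters' processing notes name HiC-Pro and hg19, without versions. The loop caller, filters and pooling of runs are not given in the sources used here. The wild-type ZNF143 list and both ZNF143KO lists have 7 tab-separated columns, and the other 4 lists 8 columns separated by spaces.

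Groups came from the sample titles. Short loops, kept, lost and gained loops and positions were computed with Python 3.11.15, numpy 2.4.6 and scipy 1.17.1 after the matching code was tested on simulated lists. Shares have Wilson intervals, ratios exact (Clopper-Pearson) intervals of the binomial split, and differences Newcombe intervals. Coordinates count from 1. Where a loop is given with its count in another list, that is the highest count among matching loops.

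The named loops are, for each pair with a protein removed, the 3 lost, gained and kept short loops with the highest count, from which the text gives those it needs, and the 2 anchors with the most short loops per wild-type list. Members, lists and classes were chosen with earlier results of these data known. Alternatives were other minimum counts, anchor extensions, span limits, equal listed totals (expected numbers under binomial thinning, with no random draw) and other choices of larger loops. Dividing the CTCF-AID counts by 2, and taking larger loops from ZNF143KO cells, were chosen after seeing the data. A search of anchors for motifs was not run, since no genome of the build was used here.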

Additional observations from a re-analysis of the deposited data

Results flagged for a closer look

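The listed number of short loops changed in opposite directions for 2 antibodies under the same contrast of ZNF143KO with wild-type cells. Short CTCF loops had a ratio of 1.13 (1.07 to 1.18) and short RAD21 loops 0.796 (0.750 to 0.846). With 1 library per group the difference was not tested. Both ratios turned direction under 1 alternative each, and under these the 2 antibodies had the same direction. At a minimum count of 3 both ratios were below 1 (0.891 for CTCF and 0.598 for RAD21). At equal listed totals both were above 1 (1.71 and 1.49).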

How the results depend on the processing

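Each of 14 results was recomputed under the alternatives, 64 values in all, of which 20 stayed within the counting interval, 41 moved and 3 turned direction; the cause was not tested. The 3 that turned were the CTCF ratio at a minimum count of 3 (0.891), the RAD21 ratio at equal listed totals (1.49) and the ratio of 0 h CTCF-AID to wild-type ZNF143 loops with CTCF-AID counts halved (0.946). At a minimum count of 3 the other ratios were 0.598 for RAD21, 0.542 for auxin and 2.00 for 0 h against wild type. At equal listed totals they were 1.71 for CTCF, 0.527 for auxin and 1.09 for 0 h against wild type, and the auxin ratio with halved counts was 0.585. The kept shares, in the order CTCF, RAD21, auxin and 0 h against wild type, were 46.0%, 33.6%, 27.1% and 58.6% without extension of the anchors, and 58.2%, 42.9%, 38.7% and 70.6% with an extension of 10 kb. They were 47.3%, 32.5%, 40.7% and 72.8% at a minimum count of 3, and 58.4%, 47.7%, 36.5% and 50.0% at equal listed totals. With halved counts they were 42.5% for auxin and 49.96% for 0 h against wild type. The share of short wild-type loops inside a larger CTCF loop, for CTCF, RAD21 and ZNF143, was 68.6%, 68.2% and 57.2% with larger loops of 3 or more counts. It was 82.7%, 83.4% and 76.6% with larger loops of 100 kb or more, and 80.04%, 80.8% and 73.8% with larger loops from ZNF143KO cells. A tolerance of 5 kb at the ends gave 81.7% for ZNF143. The share with an anchor on a longer loop was 93.7%, 91.9% and 87.0% with anchors extended by 5 kb, and 85.9%, 83.6% and 83.4% at a minimum count of 3. A limit of 40 kb, and matching to short loops only, moved none of the results they were run on beyond the counting interval. No paired analysis was possible because each group held 1 library. Depth is unknown, so a loop missing from a list was not shown to be absent.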

Other observations

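Short loops were unevenly spread over chromosomes. Chromosome 19 held 20.4% of the short wild-type ZNF143 loops (459 loops) and 24.6% of all ZNF143 loops of the list, against 8.15% of the short CTCF loops (253) and 7.41% of the short RAD21 loops (179). Its share of all loops was 5.87% for CTCF and 4.92% for RAD21, below its share of short loops, whereas for ZNF143 it was above. In CTCF-AID cells it held 18.4% of the short ZNF143 loops at 0 h (929) and 22.7% at 24 h (481), against 19.7% and 28.5% of all loops. On that chromosome 49.7% (46.5 to 52.9) of the short 0 h loops were kept at 24 h, against 33.1% over all chromosomes, and its ratio of 0.518 (0.463 to 0.579) was the highest of the 22 autosomes. The kept share there was also high without auxin. Of its short wild-type ZNF143 loops, 81.3% (77.4 to 84.6) were found at 0 h, against 65.5% over all chromosomes. Kept shares of longer loops are not given by chromosome. Of all autosomes, the auxin ratio was below 1 on 22 and the RAD21 ratio on 22, while the CTCF ratio was above 1 on 17 and below 1 on 5, with 0.941 (0.785 to 1.13) on chromosome 19. On most autosomes the intervals of the CTCF and RAD21 ratios included 1. Chromosomes of the same pair of lists are not replicates.

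The chain with the most short loops of any list lay on chromosome 19 in the 0 h CTCF-AID list, at chr19:48822888-49536462, with 82 short loops on 53 anchors. The 24 h list had separate chains of 25 and 36 short loops there, at chr19:48823024-49149050 and chr19:49222747-49497719.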
